A study of Mus musculus with 7 samples.

Results

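The genes described here encode the eukaryotic translation initiation factors (eIFs), chosen by symbol: Eif followed by a digit, without the eIF2 kinases (Eif2ak) and without pseudogenes. They were 45 of the 19752 genes measured, and 54 probes of the array carried their symbols alone. The brightest probe, by its mean over all arrays, stood for a gene. Affymetrix Mouse Gene 1.0 ST arrays had been hybridised with RNA from splenic cells of 6-week-old male C57BL/6 mice, enriched for natural killer (NK) cells by negative selection. The cells had been in culture for 8 h, with interleukin 2 (IL2; the titles give 250 U, with no volume) in 4 samples (replicates 1 to 4) or with no cytokine in 3 samples (replicates 2 to 4). Both groups had the same strain, sex, age and culture time, and no genotype other than C57BL/6 was labelled. By its title, the series asks about the response of cultured NK cells to IL2. No label says whether the samples came from separate mice or cultures, so each p-value reflects the scatter among these arrays, which may be technical.

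Initiation factors bring the small ribosomal subunit to the start codon of an mRNA. The factor eIF2 carries the initiator tRNA as a complex with GTP, and eIF2B, its exchange factor, recharges it with GTP. The large complex eIF3 holds the scanning ribosome together, eIF1 and eIF1A guide its search for the start codon, and eIF5 and eIF5B lead to joining of the large subunit. The cap of the mRNA is bound by eIF4F, made of the cap-binding protein eIF4E, the scaffold eIF4G and the RNA helicase eIF4A, and the 4E-binding proteins block eIF4E until the kinase mTORC1 phosphorylates them. Activated lymphocytes are known to raise protein synthesis, and several of these genes, Eif4e and Eif4a1 among them, are known targets of the transcription factor MYC.

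MYC binds the E-box CACGTG, a palindrome and so the same on both strands, and this motif was searched in RefSeq promoter windows of build GRCm38.p6, which run from 250 bases before each gene start to shortly after it. Of the 45 genes 35 had a window, and 9 of these (25.71%) held an E-box, namely Eif1b, Eif3a, Eif3f, Eif3k, Eif4a1, Eif4e, Eif4h, Eif5a and Eif5a2. The share was 8.09% over all genes with a window and 12.09% over the 7943 with a window whose array signal was at or above the median. The windows of the initiation factor genes were richer in G and C, with a median of 62.7% against 52.7% over all windows, and a gene with several starts has several windows. The part of the base composition in the share was not tested. The 250 bases upstream of Eif4a1, one of the genes that rose, are shown with the E-box in capitals, 5′ to 3′ on the strand of the gene (chr11:69672424-69672673, minus strand).
Eif4a1: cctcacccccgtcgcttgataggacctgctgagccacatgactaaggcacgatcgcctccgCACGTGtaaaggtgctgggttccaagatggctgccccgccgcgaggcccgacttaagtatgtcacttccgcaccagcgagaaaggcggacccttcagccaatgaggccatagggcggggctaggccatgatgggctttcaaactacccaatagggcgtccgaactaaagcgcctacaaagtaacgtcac
The E-box began 189 bases before the start of Eif4a1. It lay at 228 and 64 bases before a start of Eif4e, and at 24 bases before that of Eif1b. Eif5a had one at 74 bases before one annotated start (the same site is 185 bases before another) and one at 178 bases before a further start. Eif3a, Eif3f, Eif3k, Eif4h and Eif5a2 also held an E-box, but their IL2 and untreated arrays overlapped. Their log2 fold changes were 0.60, -0.20, 0.00, 0.30 and -0.14. Of the 9 genes with every IL2 array above every untreated array, 6 had a window and 4 of these held an E-box. Eif1ad and Eif3b had a window without one, and Eif1a, Eif2b3 and Eif4e3 had no window. The sites of Eif4e, Eif1b and Eif5a are shown as 30 bases each, with the E-box in capitals. They were chosen because every IL2 array was above every untreated array by the brightest probe (Eif4e, plus strand, chr3:138527028-138527057 and chr3:138527192-138527221, Eif1b, plus strand, chr9:120492570-120492599, Eif5a, minus strand, chr11:69921443-69921472 and chr11:69920791-69920820).
Eif4e, distal: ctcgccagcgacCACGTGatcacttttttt
Eif4e, proximal: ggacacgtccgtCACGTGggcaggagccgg
Eif1b: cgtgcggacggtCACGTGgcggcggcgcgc
Eif5a, first site: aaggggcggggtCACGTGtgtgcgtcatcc
Eif5a, second site: gcgctgcgcggcCACGTGaggtgggggagg
The motif TTCNNNGAA, which STAT factors bind (a palindrome), was in 5.71% of the 35 genes (Eif3c and Eif4e). It was in 9.55% of all genes and in 8.37% of the 7943 bright ones. The motif TGATGNAA of ATF4 and C/EBP factors, on either strand, was in 2.86% of the 35 (Eif2s3x). Its shares were 4.51% of all genes and 2.79% of the bright ones, the latter close to that of the initiation factor genes. A match of letters describes the window and is not a bound site.

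After IL2, 37 of the 45 initiation factor genes had a log2 fold change above 0 (27 after quantile normalization again), mostly a small one, and 2 passed the test. Eif2b3, which encodes the gamma subunit of the exchange factor eIF2B, rose 1.95-fold, and Eif4a1, the main eIF4A helicase, rose 1.41-fold. The test was limma on log2 intensities with Benjamini-Hochberg adjustment over all 19752 genes and a threshold of 0.05, and it called 2.08% of all genes higher and 0.901% lower. None of the 45 was lower by that test. At an unadjusted p under 0.05, limma put 18 of 45 (40%) higher against 8.81% of all genes, and 0 lower against 4.67%. The log2 fold change was above 0 for 37 of 45 (82.2%) against 45.6% of all genes, with a median of 0.24 against -0.01. Every IL2 array was above every untreated array for 9 of 45 (20%) against 6.25% of all genes, and every one below for 0 against 3.38%.

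The initiation factor genes are bright, and 44 of them were at or above the median signal of all genes. Among the 9876 genes that bright, 58.2% had a log2 fold change above 0, 16.5% had an unadjusted p under 0.05 and were higher, and 11.7% had every IL2 array above every untreated array. The bright initiation factor genes numbered 37, 18 and 9 of 44 by the same measures. When the arrays were quantile normalized again, 27 of 45 had a log2 fold change above 0, against 47.5% of all genes, and the median was 0.12. With each array centred on its median these were 38, 54.0% and 0.27. By factor, the medians ran from 0.02 for the 3 genes of eIF4E-binding proteins to 0.60 for the 4 of eIF1 and eIF1A. Those of the eIF4E-binding proteins and of eIF2A with eIF2D turned negative after quantile normalization again (-0.11 and -0.06). Over the arrays whose titles lack the time, these 2 medians (-0.02 each) and those of eIF2B (-0.01) and of eIF4A, eIF4B and eIF4H (-0.08) were negative. The median of the eIF4E-binding proteins was also negative without untreated replicate 2 (-0.06) or IL2 replicate 3 (-0.05).

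**Figure D1:**
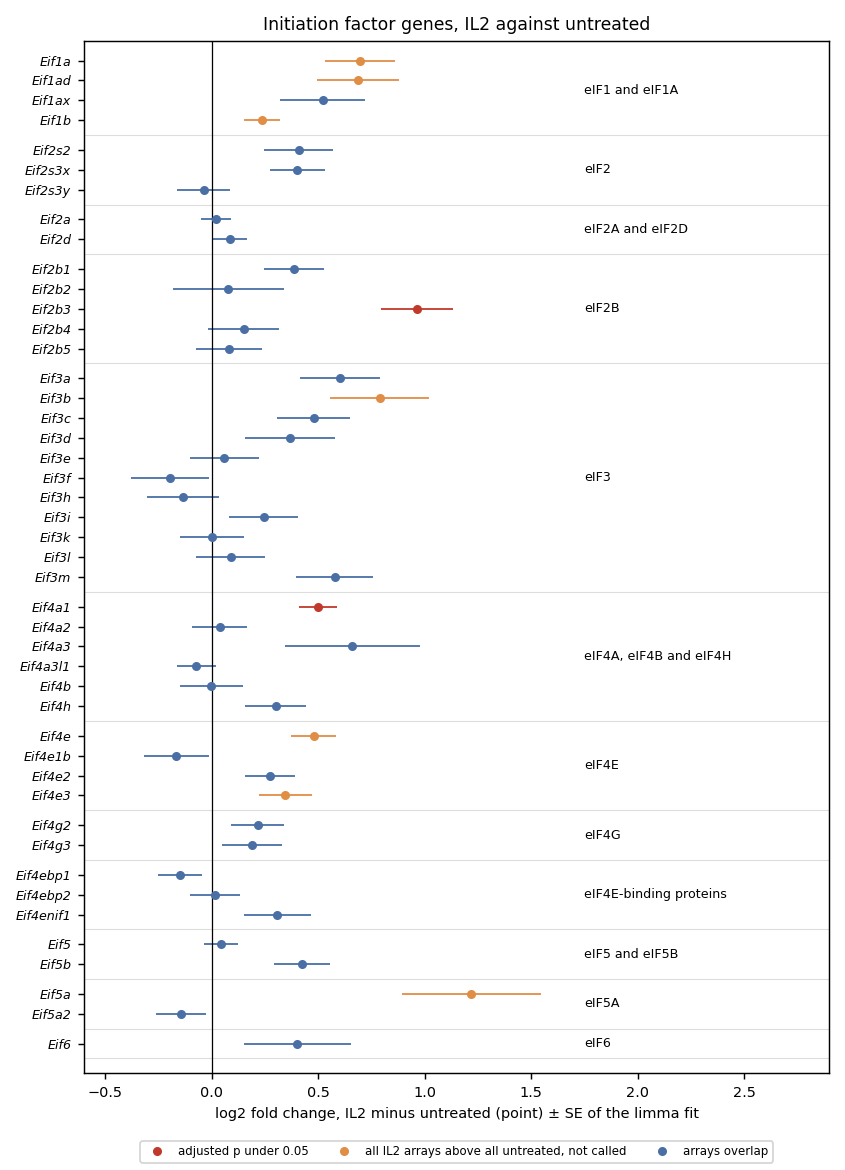
Log2 fold change of each of the 45 genes (IL2 minus untreated, 4 against 3 arrays) with the SE of the limma fit, grouped by factor. Eif2b3 and Eif4a1 passed the test, 7 other genes had every IL2 array above every untreated array, and the lowest value was -0.20 for Eif3f.

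The cells of the 2 groups also differed in markers of other cell types. Of 11 macrophage and monocyte markers 8 were lower with IL2, and their summed intensity was 12895 to 14441 in untreated and 4053 to 5833 in IL2 arrays. Of 12 NK cell markers 6 were higher, with sums of 7889 to 12603 and 25885 to 31716. The gene of NK1.1, Klrb1c, was at 8.13 to 8.99 (log2) in untreated and 9.91 to 10.71 in IL2 arrays, and passed the test as higher. For 9 of the 12 NK cell markers every IL2 array was above every untreated array. The groups overlapped for Klrd1, Klra8 and Klre1, with log2 fold changes of 0.09, 0.37 and 0.46. Of 10 neutrophil markers 1 was lower (sums of 9709 to 12075 and 5510 to 7652), and of 9 B cell markers 1 was lower (15756 to 18017 and 13229 to 14093). At an unadjusted p under 0.05, limma put 6 of the neutrophil and 5 of the B cell markers lower, against 4.67% of all genes. All markers of these 2 lists had a log2 fold change below 0. Of 7 T cell, 7 dendritic cell and 2 erythroid markers, 0 passed the limma test either way, with 0, 4 and 0 at an unadjusted p under 0.05. Of those 4 dendritic cell markers 2 were higher (Bst2 and Clec9a) and 2 lower (Flt3 and Siglech). No value of the table was 0, the lowest being 6.80 on the linear scale, so an array value does not show absence. In such bulk samples fewer cells of a type and less RNA per cell cannot be told apart, and the part of these shifts in the results below was not tested.

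The sample titles come in 2 styles, since those of replicates 3 and 4 give the time and those of replicates 1 and 2 do not, although the time is in another label of every sample. The median log2 fold change of the 45 genes was 0.39 over the 4 arrays whose titles give it, with 41 of 45 above 0 against 47.0% of all genes. It was 0.06 over the other 3 arrays (1 untreated), with 27 of 45 above 0 against 53.8% of all genes, a share close to that background. Over all genes the medians were -0.02 and 0.02. Relative to the untreated means, the median of the 45 genes was 0.06 in IL2 replicate 1, 0.17 in replicate 2, 0.35 in replicate 3 and 0.43 in replicate 4. In the untreated arrays it was 0.05, -0.06 and 0.08. The summed T cell markers were 1506 and 1679 in IL2 replicates 1 and 2 and 2661 and 2660 in replicates 3 and 4, and 1537, 1938 and 2451 in untreated replicates 2, 3 and 4. Their part in the difference between the styles was not tested.

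**Figure D2:**
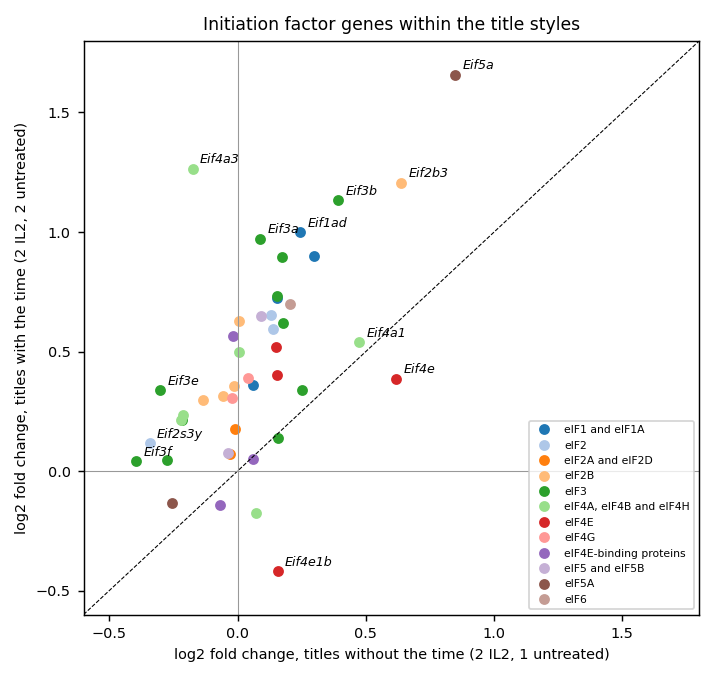
Log2 fold change of the 45 genes within the title style without the time (x axis, 2 IL2 and 1 untreated array) and with the time (y axis, 2 and 2), coloured by factor, with the dashed line marking equal values. Most genes lie above the line (medians 0.06 and 0.39), while Eif4e (0.62 and 0.39) lies below it and Eif4a1 (0.47 and 0.54) close to it.

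The 4 genes of eIF1 and eIF1A type had log2 fold changes of 0.24 to 0.70, and none passed the test in limma, although all 4 had an unadjusted p under 0.05. Eif1a and Eif1ax both encode eIF1A, which helps the scanning ribosome settle on the start codon. Eif1a had log2 intensities of 8.04, 7.52 and 7.37 in untreated replicates 2, 3 and 4 and 8.19, 8.49, 8.28 and 8.40 in IL2 replicates 1 to 4. The groups did not overlap, with untreated replicate 2 within 0.2 of the lowest IL2 array. The log2 fold change was 0.70 (SE 0.17, limma adjusted p = 0.081), and 0.90 without untreated replicate 2 (limma adjusted p = 0.0167). It also passed the test after quantile normalization again, with array quality weights, and when the dimmer part of all genes was left out. Eif1ax differed by 0.52 (SE 0.20, limma adjusted p = 0.296), and its groups overlapped by 1 IL2 array. Untreated replicate 4 (7.36, against 8.20 and 8.04) was low, and without it the difference was 0.27.

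Eif1ad encodes a protein with an eIF1A-like domain. Its values were 8.61, 7.96 and 8.49 in untreated and 8.69, 9.01, 9.19 and 9.27 in IL2 arrays, apart by less than 0.1 between the nearest arrays. The difference of 0.69 (SE 0.19, limma adjusted p = 0.137) passed the test only after quantile normalization again (0.57, adjusted p = 0.0193, over adjusted p-values of 0.0193 to 0.804 across the alternatives). Eif1b, a close relative of eIF1, had 9.34, 9.19 and 9.17 against 9.36, 9.43, 9.54 and 9.54, so that the groups were apart by 0.03. Its difference was 0.24 (SE 0.08, limma adjusted p = 0.254), the smallest of these 4 genes.

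Neither eIF2 nor its alternatives in tRNA delivery passed the test. Eif2s2, the beta subunit, differed by 0.41 (SE 0.16, limma adjusted p = 0.325) and Eif2s3x, the X-linked gamma subunit, by 0.40 (SE 0.13, limma adjusted p = 0.200). Eif2s3x had 10.38, 10.27 and 10.06 in untreated and 10.36, 10.68, 10.73 and 10.80 in IL2 arrays, so that only IL2 replicate 1 fell within the untreated range. Its Y-linked copy Eif2s3y, which encodes nearly the same protein, was at 9.13, 8.70 and 8.65 and at 8.78, 8.80, 8.73 and 8.85. That is a difference of -0.04 (95% interval -0.33 to 0.25), set by untreated replicate 2, and within an array the X-linked gene gained 0.44 over the Y-linked one. Eif2a and Eif2d, which deliver tRNA without eIF2, differed by 0.02 (95% interval -0.14 to 0.19) and 0.09 (-0.10 to 0.27).

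Of the 5 subunits of eIF2B, Eif2b3 was the one that rose. Eif2b3 had 8.22, 7.69 and 8.25 in untreated and 8.76, 8.96, 9.18 and 9.17 in IL2 arrays, with a gap of 0.5 between the groups. Its group means were 8.05 ± 0.31 (SD, n = 3) and 9.02 ± 0.20 (n = 4), and they differ by 0.96 (SE 0.17, limma adjusted p = 0.0263). Within the arrays whose titles give the time it was 1.21, and within the others 0.64, without passing the test there (limma adjusted p = 0.113 and 0.401). Leaving out any array but IL2 replicate 1 ended the call (limma adjusted p = 0.0526 to 0.104), while the log2 fold change stayed between 0.78 and 1.06.

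The other subunits of eIF2B did not pass the test. Eif2b1, the regulatory alpha subunit, differed by 0.39 (SE 0.14, limma adjusted p = 0.263). Eif2b5, the epsilon subunit that carries the exchange activity, had 7.86, 7.85 and 7.86 in untreated and 7.55, 7.90, 8.05 and 8.25 in IL2 arrays. The untreated arrays were nearly equal and the IL2 arrays lay on both sides of them, for a difference of 0.08 (95% interval -0.28 to 0.44). Eif2b2 and Eif2b4, the beta and delta subunits, differed by 0.08 and 0.15. The lowest value of the 4 IL2 arrays was in replicate 1 for all 5 subunits. The same held for most of the initiation factor genes, every measured eIF3 subunit among them, so it is not particular to eIF2B.

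The 11 measured subunits of eIF3 spanned -0.20 to 0.79 with a median of 0.24, and none passed the test in limma, 4 of them having an unadjusted p under 0.05. Eif3b, a scaffold subunit with an RNA recognition motif, had 9.59, 9.09 and 9.76 in untreated and 9.80, 10.16, 10.51 and 10.60 in IL2 arrays. The groups were apart by 0.03 and the difference was 0.79 (SE 0.23, limma adjusted p = 0.158). Eif3a, the largest subunit, differed by 0.60 (SE 0.19), Eif3m by 0.58 (SE 0.18) and Eif3c by 0.48 (SE 0.17), each with IL2 replicate 1 inside the untreated range. Without untreated replicate 3 Eif3c differed by 0.31. Eif3m passed the test without IL2 replicate 1 (0.73, limma adjusted p = 0.0261), and Eif3a and Eif3b after quantile normalization again (0.47 and 0.66, limma adjusted p = 0.0416 and 0.0343). Over the other alternatives the adjusted p-values were 0.0732 and above for Eif3a and 0.0579 and above for Eif3b.

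The other eIF3 genes lay lower. Eif3d, which can bind the cap of some mRNAs, differed by 0.37 (0.23 without IL2 replicate 4), and Eif3i by 0.24 (0.14 without untreated replicate 2 or IL2 replicate 4). Eif3e, Eif3k and Eif3l differed by 0.06, 0.00 and 0.09. Eif3f and Eif3h, the MPN-domain pair of eIF3, differed by -0.20 (95% interval -0.62 to 0.23) and -0.13 (-0.53 to 0.26). Eif3f had 11.29, 11.29 and 11.52 in untreated and 10.80, 10.99, 11.34 and 11.56 in IL2 arrays, so that IL2 replicates 1 and 2 were below all untreated arrays and replicate 4 above them. Within the style with the time both had a difference of 0.04 to 0.05, and without it -0.39 and -0.28. The difference between the subunits was not tested.

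**Figure D3:**
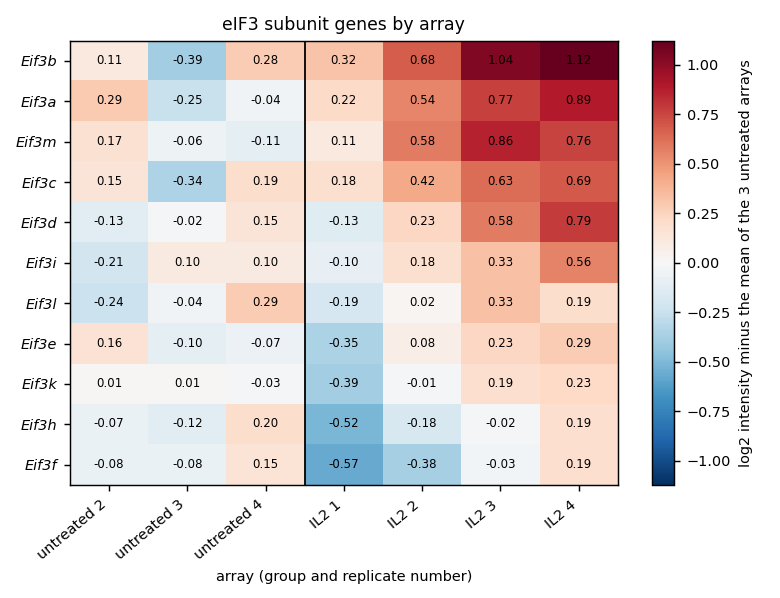
Log2 intensity of the 11 eIF3 subunit genes in each array, minus the mean of the 3 untreated arrays, sorted by the mean difference. Eif3b, Eif3a and Eif3m are above 0.5 in IL2 replicates 2 to 4, while Eif3h and Eif3f are below -0.5 in IL2 replicate 1 and at 0.19 in IL2 replicate 4.

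In the eIF4F complex the helicase gene Eif4a1 rose and its paralog Eif4a2 did not pass the test. Eif4a1 had 11.57, 11.52 and 11.71 in untreated and 11.95, 12.15, 12.18 and 12.13 in IL2 arrays, apart by 0.24. The means were 11.60 ± 0.10 (n = 3) and 12.10 ± 0.11 (n = 4), which differ by 0.50 (SE 0.09, limma adjusted p = 0.030). The call was lost when an array other than IL2 replicate 1 was left out (limma adjusted p = 0.0603 to 0.116, log2 fold changes of 0.46 to 0.55). Within the arrays whose titles give the time the log2 fold change was 0.54, without passing the test (limma adjusted p = 0.119). Within the others, with 1 untreated array, it was 0.47. Eif4a2 had 10.26, 10.20 and 10.01 against 9.90, 10.20, 10.39 and 10.29, a difference of 0.04 (95% interval -0.26 to 0.34). Within an array, Eif4a1 minus Eif4a2 was on average 0.46 higher with IL2, and it was higher in each IL2 array than in any untreated array. Those values set 2 probes against each other, so only their change has a meaning.

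Eif4a3 encodes a helicase of the exon junction complex rather than of eIF4F. It had 7.38, 6.67 and 6.71 in untreated and 6.82, 7.60, 7.75 and 8.16 in IL2 arrays, a difference of 0.66 (SE 0.32, limma adjusted p = 0.444). By this probe the difference was 1.27 in the title style with the time and -0.18 in the other, the widest such gap of the 45 genes. Brighter probes shared with the related Eif4a3l1 gave 0.48 and 0.47 (limma adjusted p = 0.153 and 0.164 over all probes). In these every IL2 array was above every untreated array. Eif4a3l1, by its own probe, was the dimmest gene, at 5.26 and 5.19 on average (difference -0.07). Eif4b and Eif4h, the cofactors of the helicase, differed by 0.00 (95% interval -0.34 to 0.34) and 0.30 (-0.03 to 0.63), the latter by 0.16 without untreated replicate 3.

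The cap-binding protein gene Eif4e narrowly missed the threshold. It had 7.92, 7.88 and 8.25 in untreated and 8.50, 8.59, 8.49 and 8.42 in IL2 arrays, with the 4 IL2 arrays within 0.2 of each other and above all untreated arrays. The difference was 0.48 (SE 0.11, limma adjusted p = 0.065), and 0.59 without untreated replicate 4 (limma adjusted p = 0.0297). It passed the test with centred arrays (0.51, adjusted p = 0.037), with array quality weights and when the dimmer part of all genes was left out, and its adjusted p-values were 0.0297 to 0.356 over all alternatives. As the mean of its 3 probes the difference was 0.29. Eif4e3, a cap-binding relative, had 8.40, 8.17 and 8.48 against 8.50, 8.59, 8.79 and 8.89, apart by 0.02 (difference 0.35, SE 0.12, limma adjusted p = 0.260). Eif4e2, which binds the cap to repress translation, differed by 0.28 (SE 0.12), and Eif4e1b, a relative best known from germ cells, by -0.17 (SE 0.15).

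The scaffold genes measured were Eif4g2, which lacks the eIF4E-binding part, and Eif4g3. They differed by 0.22 (95% interval -0.07 to 0.50) and 0.19 (-0.14 to 0.52), with overlapping groups. The Eif4g3 difference rested on untreated replicate 3 (9.09, against 9.64 in both other untreated arrays) and was 0.0039 without it. Of the proteins that hold eIF4E back, Eif4ebp1 had 8.40, 8.67 and 8.64 in untreated and 8.25, 8.42, 8.54 and 8.47 in IL2 arrays. The groups overlapped, and the difference was -0.15 (SE 0.10, 95% interval -0.39 to 0.09). Within an array, Eif4e minus Eif4ebp1 was on average 0.63 higher with IL2, at -0.48, -0.78 and -0.38 in untreated and 0.24, 0.17, -0.05 and -0.05 in IL2 arrays. This pair, like Eif4a1 with Eif4a2 and the X- and Y-linked copies, was chosen after its values had been seen and was not tested. Eif4ebp2 differed by 0.02 (95% interval -0.26 to 0.29), and Eif4enif1, which carries eIF4E into the nucleus, by 0.31 (SE 0.16), or 0.16 without untreated replicate 3.

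**Figure D4:**
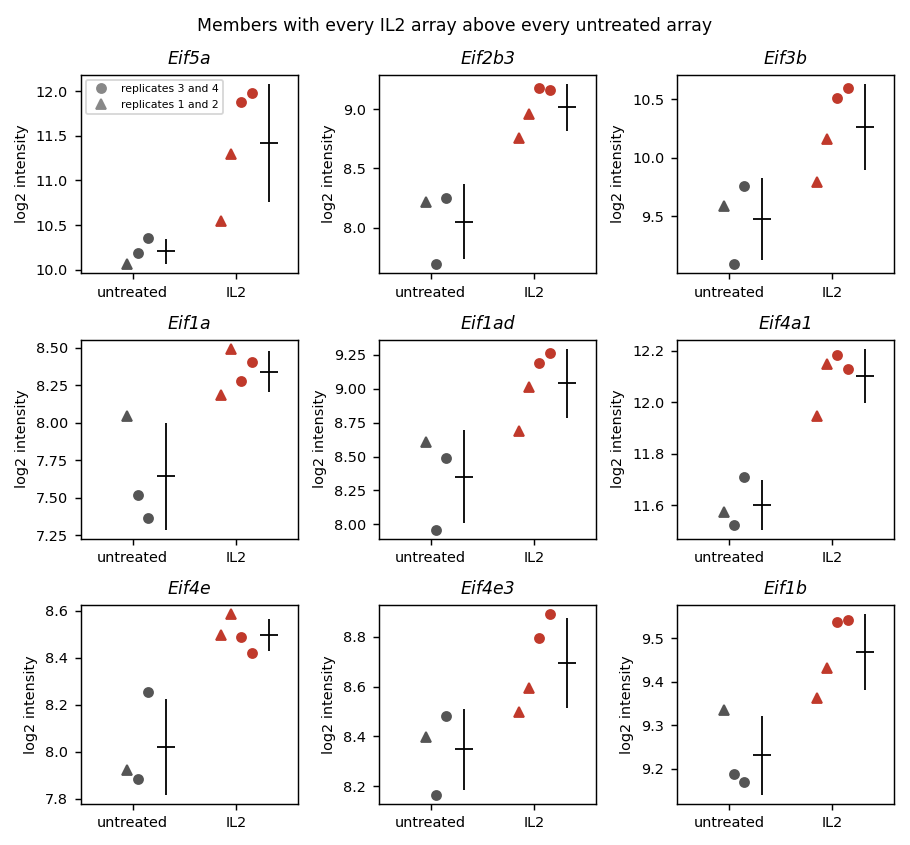
Log2 intensity in each array, by the brightest probe, of the 9 genes whose IL2 arrays were all above the untreated arrays. The mean and SD are beside the points, with circles for replicates 3 and 4 and triangles for replicates 1 and 2. Eif5a spans 10.54 to 11.98 in the IL2 arrays with replicate 1 lowest, while Eif4e spans only 8.42 to 8.59.

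By the brightest probe of each gene, Eif5a had the largest difference of the 45 genes and the widest spread between IL2 arrays. Its protein helps the ribosome through difficult stretches such as runs of proline and carries the modified lysine hypusine. It had 10.07, 10.19 and 10.35 in untreated and 10.54, 11.29, 11.88 and 11.98 in IL2 arrays. The groups were apart by this probe, with IL2 replicate 1 only 0.19 above untreated replicate 4. The log2 fold change was 1.22 (SE 0.33, limma adjusted p = 0.121), from 10.20 ± 0.14 (n = 3) to 11.42 ± 0.66 (n = 4). It was 1.51 without IL2 replicate 1 (limma adjusted p = 0.0131), 1.66 within the arrays whose titles give the time (limma adjusted p = 0.042) and 0.85 within the others. With title style as a block it was 1.33 (limma adjusted p = 0.0276), and after quantile normalization again 1.12 (limma adjusted p = 0.0487), and adjusted p-values over all alternatives ran from 0.00905 to 0.671. The second Eif5a probe gave 0.70 (SE 0.25), with overlapping groups. The paralog Eif5a2 differed by -0.14 (95% interval -0.41 to 0.13).

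The factors of subunit joining and the anti-association factor had smaller differences. Eif5b, the GTPase of subunit joining, had 7.74, 7.37 and 7.48 in untreated and 7.74, 7.93, 7.98 and 8.17 in IL2 arrays (0.42, SE 0.13, limma adjusted p = 0.178), with the highest untreated and the lowest IL2 value exactly equal. Eif5, the GTPase-activating protein of eIF2, differed by 0.05 (95% interval -0.14 to 0.23). Eif6, which keeps the large subunit from joining too early, had 9.64, 9.87 and 10.01 in untreated and 9.69, 10.01, 10.50 and 10.78 in IL2 arrays. IL2 replicates 3 and 4 were above all untreated arrays and replicates 1 and 2 within their range or equal to its top, for a difference of 0.40 (SE 0.25, limma adjusted p = 0.599), or 0.22 without IL2 replicate 4.

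Of the 45 genes 7 had more than 1 probe of their own. The 3 Eif4a1 probes gave 0.50, 0.48 and 0.48, and the 2 dimmer ones passed a limma fit over all 24922 probes (adjusted p = 0.0175 and 0.0148). All 3 are annotated with the same RefSeq transcripts, and near-identical copies of a gene cannot be told apart by such values. Of the Eif4e probes, the second-brightest gave 0.49 (SE 0.10, limma adjusted p = 0.0591) and the dimmest, which lists a single cDNA, -0.08 (SE 0.09). The second Eif5a probe, annotated with the same RefSeq transcripts as the brightest, gave 0.70 (SE 0.25), with overlapping groups. For Eif2s2 and Eif3m, too, both probes share their transcripts, and the dimmer ones gave 0.28 and 0.29. A further 10 probes carry the symbol of an initiation factor beside other symbols, among them Eif1a, Eif3j1, Eif3j2 and Eif4a3. These gave 0.02 to 0.48, and 0 passed limma (lowest adjusted p = 0.153). An unadjusted p under 0.05 was held by 3, all higher, including both probes shared by Eif4a3 and Eif4a3l1. In the fit over genes 8.81% were higher by that measure. Several of the 10 probes carry the same symbols, so they do not count as separate genes. Eif1, Eif2s1, Eif3g and Eif4g1 were not analysed here.

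**Figure D5:**
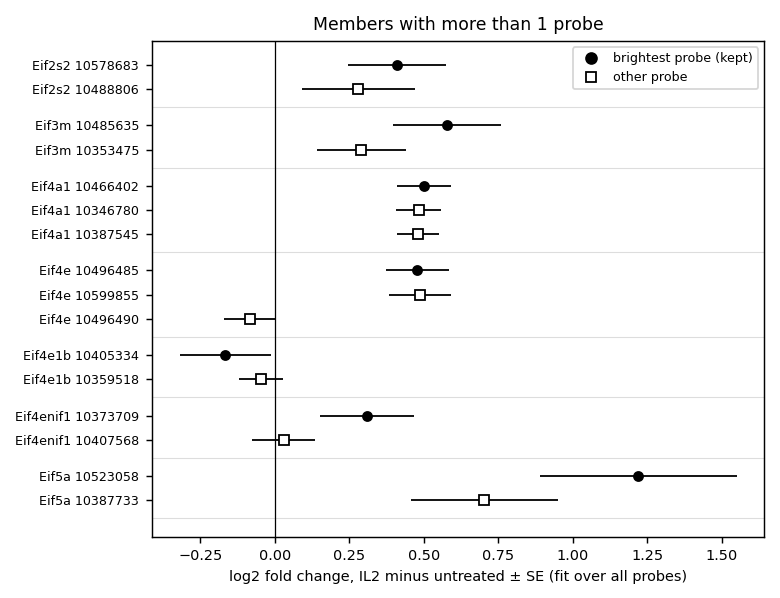
Log2 fold change (IL2 minus untreated) with its SE for each probe of the 7 genes with more than 1 probe, from a fit over all probes, with filled circles for the brightest probe. The 3 Eif4a1 probes lie at 0.48 to 0.50, and 1 Eif4e probe lies at -0.08 beside 0.48 and 0.49.

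Genes that control or surround initiation were counted from lists written from general knowledge. Over all genes limma called 2.08% higher, and at an unadjusted p under 0.05 it put 8.81% higher and 4.67% lower. Of 12 genes of eIF2 kinases and their opposing phosphatase, 1 was higher: Eif2ak2, the interferon-induced kinase PKR, with 7.20, 6.26 and 6.55 in untreated and 8.11, 8.41, 9.17 and 8.59 in IL2 arrays. It rose by 1.90 (SE 0.29, limma adjusted p = 0.0154), while the kinase genes Eif2ak1, Eif2ak3 and Eif2ak4 differed by -0.06, -0.43 and 0.12 and did not pass the test. The list median was 0.08. Of 18 genes of mTORC1, S6 kinase, MNK and La-related proteins, Larp4 was higher (0.41, SE 0.08, limma adjusted p = 0.0453) and none lower, with a median of 0.09. Larp1, which binds the cap-adjacent tract of ribosomal protein mRNAs, differed by 1.12 (SE 0.23, limma adjusted p = 0.0509), with every IL2 array above every untreated array. Mtor itself differed by 0.17 (SE 0.17).

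Of 12 other initiation and recycling factors, Bzw2 was higher (1.09, SE 0.18, limma adjusted p = 0.021), a mimic of eIF5, and the median was 0.27. It had 8.55, 8.24 and 8.54 in untreated and 9.14, 9.41, 9.79 and 9.81 in IL2 arrays. At an unadjusted p under 0.05, limma put 5 of these 12 genes higher. The same measure put 1 gene of the eIF2 kinase list, 2 of the mTORC1 list and 2 of the elongation factor list higher. Of 8 elongation factor genes, Eef1e1 was higher (1.02, SE 0.08, limma adjusted p = 0.0012), a component of the tRNA synthetase complex. Its list median was -0.01, and Eef1a1 and Eef2, the main elongation factors, differed by 0.01 and -0.02. Of 5 termination factor genes 0 passed the limma test and 2 had an unadjusted p under 0.05, led by Gspt1, the release factor eRF3a (0.69, SE 0.15, limma adjusted p = 0.0561). The hypusine enzyme genes Dhps and Dohh differed by 0.32 and 0.30, and of 4 genes of poly(A)-binding protein and its partners 0 passed, with Paip2 at -0.35 (1 had an unadjusted p under 0.05). No gene of these lists passed limma as lower, and 4 were lower at an unadjusted p under 0.05.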

How the data were processed

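Gene expression was measured on 7 Affymetrix Mouse Gene 1.0 ST arrays, 4 of IL2-treated and 3 of untreated cells, grouped by the sample titles. The intensity values were deposited by the authors as 1 linear value per transcript cluster and array, and the submitters' processing notes name RMA in Affymetrix Power Tools. Tool settings and versions: not given in the sources used here. Precision is limited by the number of arrays. Median intensities were 121.3 to 131.0 per array. The values were brought to log2 with no offset.

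Probes with exactly 1 gene symbol in the platform annotation were used (21425 of 24922), and the brightest per gene was kept. The values were fitted with limma 3.58.1 under R 4.3.3 with 1 factor and default eBayes (7.68 degrees of freedom), and p-values were adjusted by Benjamini-Hochberg over all 19752 genes. The 95% intervals and SEs come from the moderated fit, and an SD after ± is over arrays. Tested on simulated arrays in these 2 groups, the fit recovered 77% of genes changed by 1 and 100% of those changed by 2 on the log2 scale. Exactly equal values in at least 2 arrays were held by 14 of the 45 genes (31.1%) and 54.3% of all genes.

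Named genes were those past the threshold, the highest and lowest of each factor complex, some always named, and of each other list the called genes or the one with the largest change. Others (Larp1, Mtor, the remaining eIF2 kinases, Eef1a1, Eef2, Dohh and the remaining initiation factor genes) were named after their values were seen. The members and lists were chosen with earlier results of these data known. Alternatives were a replicate block, title style, quantile normalization, centring, a signal filter, eBayes with trend and robust, array weights (statmod 1.5.0), the mean of all probes, and leaving out each array. Promoter windows are from RefSeq.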

Additional observations from a re-analysis of the deposited data

Results flagged for a closer look

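In IL2 replicate 1, Eif4a3l1 lay apart from the other 3 IL2 arrays (5.35 against 5.13 to 5.15, log2), its gap being 0.909 of the whole range of the group. It is the dimmest of the 45 genes. For Eif5, IL2 replicate 2 had 10.56 while the other 3 IL2 arrays held exactly the same value of 10.46, so that the gap was the whole range (ratio 1). Chance flags about 1 in 20 groups by this comparison, and 45 genes were examined.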

How the results depend on the processing

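Eif2b3 and Eif4a1 kept a positive difference under every alternative run. The count of initiation factor genes called higher was 2, and it was 1 and 0 over the arrays with and without the time in the title, 7 after quantile normalization again, 4 with array quality weights and 4 of 44 when the dimmer part of all genes was left out. Of all genes tested, 2.08% were called higher, and 3.70%, 2.80% and 5.85% in these last 3 settings. With 1 array left out it was 0 to 4, and each of untreated replicate 3 and IL2 replicates 2, 3 and 4 brought it to 0 when left out. At an unadjusted p under 0.05 limma then put 11 to 16 higher, against 5.86% to 7.45% of all genes. No alternative called one lower by limma, with 0 at an unadjusted p under 0.05 other than 1 over the arrays without the time. The median of the 45 genes was 0.0612 over the arrays without the time and 0.16 to 0.32 with 1 array left out. Over all genes, 81 were higher and 22 lower with the time in the title, and 0 and 0 without it (2630 at an unadjusted p under 0.05 in limma). After quantile normalization again 730 were higher and 628 lower, and higher calls were 53.8% of calls in place of 69.7%. With 1 array left out, 134 to 517 were higher and 65 to 152 lower. The cause of these differences was not tested. Leaving out an array, or keeping 1 title style, also leaves fewer arrays.

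Replicate numbers 2 to 4 are shared by the groups, but no label says that they mark pairs, so they were not taken as pairs. Deviations of same-numbered arrays correlated at 0.46, -0.299 and 0.308, and those of unlike-numbered arrays at -0.484 to 0.454. These ranges overlap, so they cannot decide whether the numbers mark pairs. With the replicate number as a block limma called 554 genes higher and 184 lower, and 2 initiation factor genes higher, Eif2b3 and Eif5a (1.51, adjusted p = 0.00905), while Eif4a1 was at adjusted p = 0.0519. The number of arrays limits what these counts can show.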
